A study of Mus musculus with 62 samples.

Results

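The splicing regulator families were taken as the protein-coding genes whose symbol begins with Srsf, Hnrnp, Rbfox, Nova, Celf, Elavl, Ptbp, Mbnl or Khdrbs followed by a digit or letter. The rule uses the annotation only, and it found 56 genes among the 56415 of the count table, of which 21636 are protein-coding. There are 12 Srsf, 20 Hnrnp, 3 Rbfox, 2 Nova, 6 Celf, 4 Elavl, 3 Ptbp, 3 Mbnl and 3 Khdrbs genes, and their 547 annotated isoforms lie among 218795. Poly(A) RNA was sequenced from the cortex (CTX), from the dorsal and the ventral part of the hippocampus (dHPC and vHPC) and from the dorsal and the ventral striatum (DS and VS) of male C57BL/6J mice aged 8 to 10 weeks. Each mouse received 2 g/kg ethanol, as a 20% solution in saline, or saline alone by intraperitoneal injection, once (acute) or daily for 10 days (chronic), and tissue was taken 4 h after the last injection. Each of the 20 groups holds 3 mice, except for 4 in dHPC acute ethanol and 4 in DS chronic ethanol. The 62 libraries come from 16 mice that each gave several regions, so the regions are not independent, and a level in bulk tissue cannot separate fewer cells of a type from less RNA per cell.

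These proteins bind pre-mRNA and set which exons stay in the mature transcript. SR proteins (Srsf) mostly bind exonic enhancers and promote inclusion, whereas hnRNPs and the Ptbp proteins often repress exons. Rbfox, Nova, Celf, neuronal Elavl (Hu) and Khdrbs (Sam68-like) proteins shape the splicing programmes of neurons, and many of these genes control their own level through isoforms destroyed by nonsense-mediated decay (NMD). Of the 56 genes, 27 have an annotated NMD isoform, and their isoforms comprise 300 protein-coding, 49 NMD, 119 retained-intron and 79 without a defined coding sequence.

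The genes in which ethanol and saline differed past the threshold in the DS were Elavl4, Khdrbs3, Elavl2 and Celf3. For 3 of these the 250 bases before the start of transcription are shown. Khdrbs3 has no entry in the table used. They come from RefSeq (GRCm38.p6), are written 5′ to 3′ on the strand of the gene, and have each CG dinucleotide in capitals. The Elavl4 window is chr4:110351912-110352161 on the minus strand, that of Elavl2 chr4:91399985-91400234 on the minus strand, and that of Celf3 chr3:94482472-94482721 on the plus strand.
Elavl4: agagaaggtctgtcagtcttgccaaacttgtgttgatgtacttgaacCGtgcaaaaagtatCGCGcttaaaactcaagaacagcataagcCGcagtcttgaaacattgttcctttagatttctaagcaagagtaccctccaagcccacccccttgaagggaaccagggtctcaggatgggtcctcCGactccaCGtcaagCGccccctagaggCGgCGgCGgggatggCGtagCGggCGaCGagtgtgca
Elavl2: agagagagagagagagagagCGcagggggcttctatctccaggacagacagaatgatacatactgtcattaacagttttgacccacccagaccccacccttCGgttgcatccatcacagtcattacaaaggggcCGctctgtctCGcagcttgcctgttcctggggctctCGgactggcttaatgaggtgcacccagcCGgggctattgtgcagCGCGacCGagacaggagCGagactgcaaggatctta
Celf3: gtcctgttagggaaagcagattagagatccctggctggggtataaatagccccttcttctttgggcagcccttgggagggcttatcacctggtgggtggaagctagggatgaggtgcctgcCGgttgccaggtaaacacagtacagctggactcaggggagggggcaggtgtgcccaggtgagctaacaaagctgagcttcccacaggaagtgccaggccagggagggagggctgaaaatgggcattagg
They hold 14, 10 and 1 CG. The 48 members with an entry had a median of 19.5 CG and a range of 1 to 46, and all 27025 promoters had a median of 6.0. The letters GGGCGG (Sp1 box), searched on both strands, were found in 64.6% of member promoters and in 32.9% of all, and in none of the 3 shown. TATAAA was found in 14.6% of member and 13.0% of all promoters, CCAAT in 45.8% and 34.5%, and TGACGTCA in 2.08% and 1.62%.

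Gene counts per library ran from 43173748 to 61873358 in CTX, 44391219 to 71164766 in dHPC, 11421520 to 16574721 in vHPC, 10142093 to 20428676 in VS and 8149628 to 46564992 in DS. The 56 genes took 0.644% to 1.05% of the counts of a library. For 11 members DS chronic saline replicate 2 could have no count, because its column is empty for chromosomes 7 to 9, the sex chromosomes, mitochondria and chromosome 6 past position 22875501. It was left out of the DS chronic and DS interaction tests, so that DS chronic saline has 2 libraries. Libraries of a group come from different mice, so p-values measure the spread between mice. CTX and dHPC were made with an unstranded kit and vHPC, DS and VS with a directional kit on another sequencer. In CTX and dHPC reads of the 29 members with an exon overlapping one on the other strand, Elavl4 and Celf3 among them, cannot be told apart from those of the partner. A near-identical stretch of at least 100 bases is shared with another gene by 13 members, Celf3 among them. Srsf8 had 0 counts in 59 of 61 libraries and at most 2, and could not be tested. Mbnl3 had 0 to 22 counts and was tested in 5 of the 10 comparisons of ethanol and saline. The other 54 genes were tested in all 10.

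Levels are in CPM, the count scaled to a common TMM-normalized library size, and levels of different genes are compared per kilobase of exon in saline libraries. Hnrnpa1, an hnRNP of high abundance in most cells, was at the highest level of the 56 genes in dHPC, vHPC, DS and VS, at 72.3 ± 2.88 (SD, n = 6), 71.8 ± 3.16 (n = 6), 75.0 ± 6.71 (n = 5) and 86.8 ± 4.82 (n = 6), in that order. The leading gene of the SR family was Srsf5, with means of 51.1 to 68.0 CPM per kilobase over the 5 regions. Rbfox3 (NeuN), a marker of mature neurons, was at 64.4 in CTX, the highest level of all 56 genes there. It also had the highest mean of its family in vHPC and VS, with 48.2 and 41.5, whereas Rbfox1 and Rbfox3 stood at 40.9 and 40.6 in dHPC and at 41.0 and 38.4 in DS, and outside CTX the ranges of these genes overlapped. Celf4 led the Celf family with 40.3 to 58.2 and Elavl3 (HuC) the Elavl family with 30.5 to 36.5. Khdrbs3 (SLM2, T-STAR), which regulates neurexin splicing, had the highest mean of the Khdrbs family in CTX, dHPC, vHPC and DS, with 23.1 to 41.6. In VS Khdrbs1 was at 19.9 and Khdrbs3 at 17.8, and in DS and VS their ranges overlapped. Mbnl2 led the Mbnl family with 16.8 to 26.6. Nova2 with 7.33 to 14.4 and Ptbp2 (nPTB, the neuronal form) with 7.13 to 8.67 led families of lower level.

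Between vHPC, DS and VS, which share a kit, the order of the regions differed by gene. Scaling factors were set within each comparison and not across regions, so these levels are a description. Khdrbs3 in saline libraries ran from 36.5 to 53.5 CPM per kilobase in vHPC, 20.3 to 27.3 in DS and 11.0 to 22.4 in VS, so that vHPC stood apart and DS and VS overlapped. Nova2, an RNA-binding protein of neurons, ran from 13.1 to 15.6 in vHPC, 5.33 to 8.05 in DS and 7.81 to 9.51 in VS, with the same separation of vHPC. The vHPC mean was 1.96 times the DS mean for Nova2, 1.88 times for Elavl2, 1.80 times for Khdrbs3 and 0.634 times for Mbnl2. Elavl4 did not separate these regions, with 5.76 to 9.66 in vHPC, 3.97 to 11.9 in DS and 6.02 to 11.7 in VS.

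In DS after acute ethanol, 3 neuronal RNA-binding protein genes fell and 1 rose. Elavl4 and Elavl2 (HuD and HuB), which stabilize transcripts and regulate splicing in neurons, and Khdrbs3 fell, and Celf3, a brain-enriched CELF protein, rose. EdgeR called 4 of 54 members, beside 5.15% of all 20495 genes tested (2.05% higher and 3.10% lower), DESeq2 called 4 (6.40% of all genes), and 9 had an unadjusted p below 0.05 (15.5%). Of the members, 11 had groups that did not overlap, beside 21.4% of all genes, and the median log2 fold change was 0.01 over the members and 0.00 over all genes.

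Elavl4 (chr4:110060919-110209106 in GRCm39, minus strand) measured 42.8, 42.4 and 35.7 CPM in the DS acute saline libraries and 16.9, 18.7 and 16.3 CPM after ethanol. Every ethanol library lay below the lowest saline library, and the means were 40.3 ± 3.97 and 17.3 ± 1.28 (SD, n = 3 each). The log2 fold change was -1.22 (SE 0.11), with an FDR of 9.97e-05 in edgeR's quasi-likelihood test. Khdrbs3 (chr15:68800269-68973060, plus strand) measured 82.1, 74.4 and 80.8 CPM in saline and 46.8, 51.6 and 45.0 CPM in ethanol libraries. The groups did not overlap, and Khdrbs3 fell by 0.73 on the log2 scale (SE 0.079, FDR 0.000231). Elavl2 (chr4:91139000-91289022, minus strand) measured 45.9, 46.0 and 43.0 CPM in saline and 33.6, 28.2 and 29.6 CPM in ethanol libraries. Again no ethanol library reached the saline range, and the log2 fold change was -0.57 (SE 0.092, FDR 0.00382). Celf3 (chr3:94385602-94399495, plus strand) measured 112, 116 and 109 CPM in saline and 143, 130 and 130 CPM in ethanol libraries. All ethanol libraries were higher, by 0.25 on the log2 scale (SE 0.068, FDR 0.0626). The call of Celf3 was lost with all 4 DS groups in one fit (FDR 0.107) and without any 1 library other than saline replicate 4, with FDRs of 0.0817 to 0.216 over the 6 omissions, whereas the other 3 calls held in each.

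The other members of these families did not pass the threshold in DS. Elavl3 averaged 216 and 211 CPM in saline and ethanol libraries (log2 fold change -0.03, FDR 0.844), and the ubiquitous Elavl1 (HuR) 41.8 and 44.0 CPM (0.07, FDR 0.739). Khdrbs1 (Sam68) averaged 132 and 131 CPM (-0.02, FDR 0.936). Khdrbs2 (SLM1) averaged 8.17 and 10.5 CPM (0.36, FDR 0.407), the highest fold change of any member in this comparison. Celf1, Celf2, Celf4, Celf5 and Celf6 lay between -0.11 (Celf6) and 0.08 (Celf2).

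The same DS libraries differed in markers of other cell types. All 8 markers of pallial excitatory neurons (Slc17a7, Neurod2, Neurod6, Tbr1, Emx1, Sv2b, Cux2 and Fezf2), which belong to cortex and hippocampus rather than striatum, fell in DS after acute ethanol, for example Neurod6 by 3.57 on the log2 scale. Their summed level ran from 673 to 728 CPM in saline and from 215 to 341 CPM in ethanol libraries, and in CTX it ran from 2156 to 2712 CPM. None of the 8 was at 0 in every library of a group. All 10 markers of striatal projection neurons were higher, and edgeR called 8. Their sum ran from 6015 to 7214 CPM in saline and from 7950 to 8210 CPM in ethanol libraries. All 6 pan-neuronal markers were lower, and edgeR called 4. Their sum ran from 2921 to 3313 CPM in saline and from 2593 to 2632 CPM in ethanol libraries. All 8 choroid plexus markers were higher and 2 were called, with sums of 23.4 to 296 CPM and 71.4 to 799 CPM. Of 8 astrocyte markers 4 were lower and 4 higher, and 1, Gfap, was called lower (-1.01, FDR 0.0146). Of 10 myelin and oligodendrocyte markers 9 were lower and 1 higher, and 1, Ugt8a, was called lower (-0.50, FDR 0.00716). The part of these cell types in the changes of Elavl4, Khdrbs3, Elavl2 and Celf3 was not tested.

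**Figure D1:**
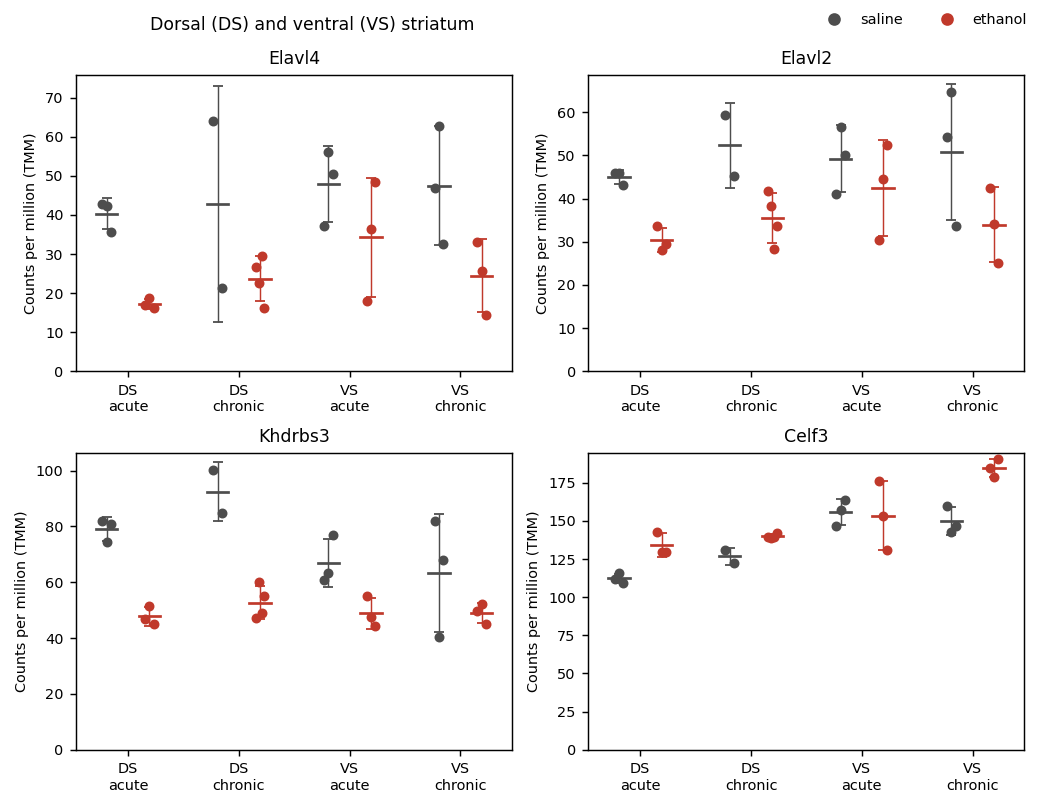
TMM-normalized CPM (y axis) of Elavl4, Elavl2, Khdrbs3 and Celf3 in DS and VS, acute and chronic (x axis); each point is a library, lines with bars are the mean and SD of saline and ethanol groups. In DS acute the groups of all 4 genes are apart, with Elavl4 at 35.7 to 42.8 CPM in saline and 16.3 to 18.7 CPM in ethanol libraries, while in VS the Elavl4 points overlap.

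In the other striatal comparisons edgeR called no member. In DS chronic it called 0 of 55 (0% of all 19844 genes), with 3 at an unadjusted p below 0.05 (7.53%) and 1 called by DESeq2 (0.776%). In VS acute it called 0 of 55 (0.0399% of all genes), with 2 at an unadjusted p below 0.05 (7.32%) and 0 by DESeq2 (0.889%). In VS chronic it called 0 of 55 (0% of all genes), with 6 at an unadjusted p below 0.05 (9.95%) and 3 by DESeq2 (1.79%). Khdrbs3 measured 100.1 and 84.9 CPM in the 2 DS chronic saline libraries and 47.1, 59.9, 48.8 and 55.0 CPM in ethanol libraries. The groups did not overlap, but with 2 saline libraries edgeR gave an FDR of 0.172 for a log2 fold change of -0.81 (SE 0.12), whereas DESeq2 gave an adjusted p of 0.00016 and edgeR with all 4 DS groups in one fit an FDR of 0.0058. In VS acute Khdrbs3 measured 60.6, 63.3 and 76.9 CPM in saline and 55.1, 47.4 and 44.2 CPM in ethanol libraries, a log2 fold change of -0.45 (SE 0.13, FDR 0.428). In VS chronic it measured 82.0, 40.4 and 68.0 CPM in saline and 49.8, 52.1 and 45.0 CPM in ethanol libraries, and the groups overlapped.

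Elavl4 varied widely between libraries of one group in these comparisons. It measured 64.0 and 21.4 CPM in DS chronic saline and 26.6, 22.6, 29.4 and 16.1 CPM in ethanol libraries. It measured 37.1, 56.2 and 50.5 CPM in VS acute saline and 18.0, 36.5 and 48.3 CPM in ethanol libraries. In VS chronic the saline libraries measured 46.9, 62.8 and 32.4 CPM and the ethanol libraries 33.1, 25.7 and 14.5 CPM. The groups overlapped in all 3 comparisons. The log2 fold changes of Elavl4 were -0.85 (SE 0.37, FDR 0.659), -0.49 (SE 0.30, FDR 0.795) and -0.96 (SE 0.30, FDR 0.365). Elavl2 was -0.56 (SE 0.17, FDR 0.506) in DS chronic, where it measured 59.2 and 45.3 CPM in saline and 41.8, 38.4, 28.4 and 33.6 CPM in ethanol libraries and the groups did not overlap.

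The pallial marker sum varied in the same libraries. In VS chronic saline replicate 5 it was 175 CPM, with replicates 3 and 6 at 1043 and 661 CPM and the ethanol libraries at 181 to 249 CPM. That library had the lowest Khdrbs3 level of its group, 40.4 CPM, and the highest Elavl4 level, 62.8 CPM. In VS acute the sum was 580.0 to 1128 CPM in saline and 174 to 333 CPM in ethanol libraries, and in DS chronic 667 to 915 CPM and 199.7 to 394 CPM. In VS acute ethanol replicate 5, with 174 CPM of pallial markers, Elavl4 measured 48.3 CPM. EdgeR called 1 of the 8 markers in VS acute and none of 8 in DS chronic and VS chronic. DESeq2 called 7, 4 and 3 of them in these comparisons, in that order. An unadjusted p below 0.05 was found for 7, 7 and 6, and the median log2 fold changes were -2.86, -2.51 and -3.04. Pan-neuronal sums in VS acute ran from 2925 to 3576 CPM in saline and from 2628 to 2688 CPM in ethanol libraries. In DS chronic all 10 myelin and oligodendrocyte markers were lower with none called, and their sums ran from 9453 to 9799 CPM and from 6317 to 8958 CPM. All 10 striatal projection neuron markers were higher there (median log2 fold change 0.43), 6 at an unadjusted p below 0.05 and none called. The part of these markers in the Khdrbs3, Elavl2 and Elavl4 levels was not tested.

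**Figure D2:**
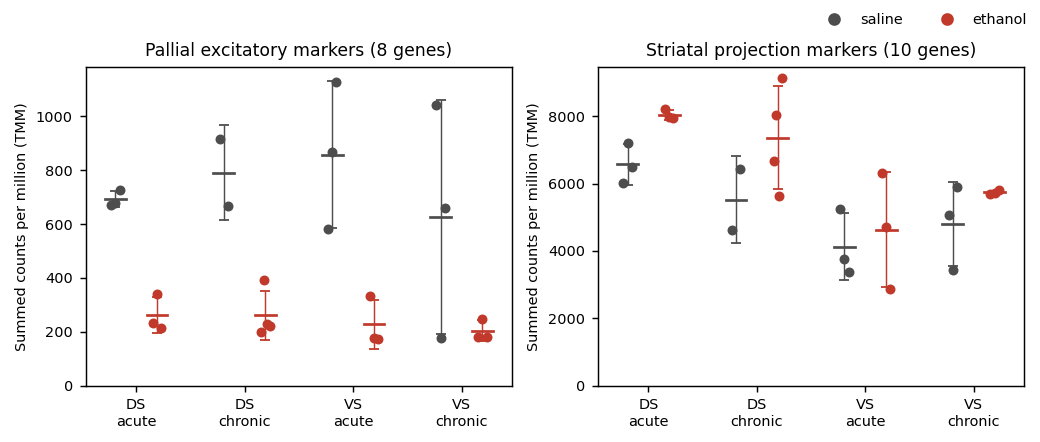
Summed TMM-normalized CPM (y axis) of 8 pallial excitatory and 10 striatal projection neuron markers in DS and VS libraries (x axis: region and paradigm); points are libraries, lines with bars are the mean and SD. Pallial sums in DS acute run from 673 to 728 CPM in saline and 215 to 341 CPM in ethanol libraries, and VS chronic saline replicate 5 lies at 175 CPM, beside the ethanol libraries.

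In VS after chronic ethanol the members with the smallest p-values were Khdrbs2 and Celf3. Khdrbs2 measured 6.73, 10.3 and 10.4 CPM in saline and 14.8, 18.8 and 16.8 CPM in ethanol libraries, without overlap (log2 fold change 0.89, SE 0.20, edgeR FDR 0.24, DESeq2 adjusted p 0.0121). Celf3 measured 160, 143 and 147 CPM in saline and 185, 179 and 191 CPM in ethanol libraries, again without overlap (0.30, SE 0.082, FDR 0.326). Neither passed edgeR's threshold, though without saline replicate 5 Khdrbs2 did, with a log2 fold change of 0.99 and an FDR of 0.057. In VS acute Khdrbs2 measured 14.8 to 16.5 CPM in the 3 saline libraries and 22.4, 17.5 and 18.1 CPM in ethanol libraries (0.33, SE 0.14, FDR 0.668). Members whose groups did not overlap numbered 9 of 55 in DS chronic (17.4% of all genes), 3 of 55 in VS acute (12.5%) and 7 of 55 in VS chronic (16.1%).

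Besides the pallial markers, other marker lists differed between the VS chronic libraries, though edgeR called none of their genes. All 10 striatal projection neuron markers were higher after ethanol (median log2 fold change 0.28), 3 at an unadjusted p below 0.05 and 2 called by DESeq2. All 10 myelin and oligodendrocyte markers were lower after ethanol, 8 at an unadjusted p below 0.05 and 2 called by DESeq2, and their sums of 5657 to 7836 CPM in saline and 4263 to 5728 CPM in ethanol libraries overlapped. Astrocyte sums ran from 2117 to 2429 CPM in saline and from 1945 to 1986 CPM in ethanol libraries, with 6 of 8 markers lower. Dentate granule sums ran from 26.3 to 36.1 CPM and from 14.7 to 16.5 CPM, with 5 of 6 markers lower. Pan-neuronal sums ran from 2999.8 to 3385 CPM and from 2321 to 2881 CPM, and mural and fibroblast sums from 113 to 119.8 CPM and from 95.5 to 104 CPM, with all 6 markers of each list lower. The sums of these last 4 lists did not overlap between the groups, and none of their markers was at 0 in every library of a group. The part of these cells in the Khdrbs2 and Celf3 values was not tested.

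In CTX after acute ethanol, Celf1 and Hnrnpa0 fell. Celf1 (CUGBP1) binds GU-rich elements and regulates both splicing and mRNA decay, and Hnrnpa0 is an hnRNP A-type protein that binds AU-rich elements. EdgeR called these 2 of 55 members, beside 1.99% of all 25905 genes (1.17% lower), and DESeq2 called 4 (3.69% of all genes), adding Nova2 and Ptbp1. An unadjusted p below 0.05 was found for 8 (12.5%). Of the members 36 were lower and 19 higher, with a median log2 fold change of -0.04 beside 0.00 over all genes, and the groups did not overlap for 14, of which 11 were lower, beside 17.6% of all genes in either direction and 8.79% lower. Celf1 (chr2:90770727-90849835, plus strand) measured 187, 194 and 195 CPM in saline and 169, 165 and 160 CPM in ethanol libraries. The ethanol libraries were all lower, with a log2 fold change of -0.22 (SE 0.048, FDR 0.0517). Hnrnpa0 (chr13:58273693-58276370, minus strand) measured 134, 148 and 139 CPM in saline and 126, 117 and 119 CPM in ethanol libraries. The groups were apart here too, and Hnrnpa0 fell by 0.21 on the log2 scale (SE 0.055, FDR 0.0944). With all 4 CTX groups in one fit neither was called (FDR 0.598 and 0.588). Neither was called without ethanol replicate 4 or 5 or saline replicate 4 or 6, and Hnrnpa0 was not called without saline replicate 2, with FDRs over all omissions of 0.0457 to 0.199 for Celf1 and 0.0653 to 0.321 for Hnrnpa0.

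Markers of other cells differed between the same libraries. All 10 myelin and oligodendrocyte markers were higher, and edgeR called 5. Their sum ran from 1938 to 2196 CPM in saline and from 2258 to 3004 CPM in ethanol libraries. All 6 mural and fibroblast markers were lower and 2 were called, with sums of 134 to 141 CPM and 109 to 119 CPM. Of the 10 striatal markers 9 were lower and 3 were called lower, with sums of 314 to 381 CPM and 276 to 299 CPM. All 6 endothelial markers were lower and 1 was called, with sums of 168 to 178 CPM and 149.7 to 159 CPM. None of these lists' markers was at 0 in every library of a group. Of 8 pallial excitatory markers 4 were higher and 4 lower, 5 of them at an unadjusted p below 0.05. EdgeR called Cux2 lower (-0.37, FDR 0.0218) and Neurod6 higher (0.31, FDR 0.0810). Of 8 choroid plexus markers 7 were lower (median -0.93), with 4 of the 8 at an unadjusted p below 0.05 and 0 called. The part of all these cells in the fall of Celf1 and Hnrnpa0 was not tested.

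All 14 Celf1 isoforms had a lower level after acute ethanol in CTX, and edgeR called 11 of them. An isoform here is counted from reads that overlap it, and one read counts for every isoform it overlaps, so isoforms of one gene are not independent. The 9 protein-coding isoforms, all called, lay between -0.23 and -0.22 on the log2 scale. Hnrnpa0-201, the single Hnrnpa0 isoform, was at -0.22 with an FDR of 0.101 and was not called. The short Celf1-212, whose 350 bases lie in 2 exons (chr2:90770727-90770986 and chr2:90818010-90818099) and have no defined coding sequence, fell by 0.73 (SE 0.14, FDR 0.0321). It measured 1.55, 2.06 and 1.70 CPM in saline and 1.26, 1.04 and 0.915 CPM in ethanol libraries, on 161 to 364 reads. Celf1-210, a 426-base transcript that shares exon bases with it, fell by 0.64 (SE 0.14, FDR 0.0478). Celf1-211, Celf1-213 and Celf1-209, short as well, were at -0.58, -0.40 and -0.18 and were not called. The difference in size between the falls of short and long isoforms was not tested. These calls rested on single libraries and on the fit. No member isoform was called with all 4 CTX groups in one fit, nor without ethanol replicate 4, ethanol replicate 5 or saline replicate 4, and 2 were called without saline replicate 2 and 2 without saline replicate 6. Over 12 alternatives the FDR ran from 1.94e-05 to 0.391 for Celf1-212 and from 3.22e-05 to 0.495 for Celf1-210.

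**Figure D3:**
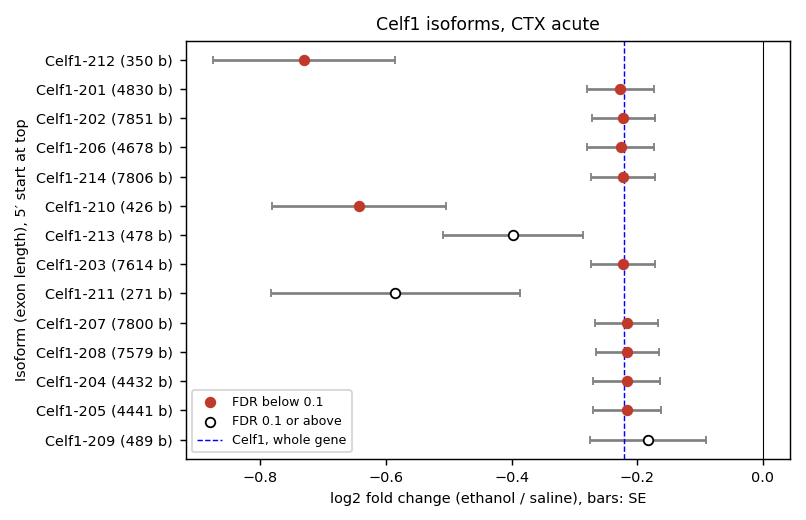
Log2 fold change of ethanol over saline (x axis) for the 14 Celf1 isoforms in CTX acute (y axis, with exon length in bases), with bars of 1 SE and a dashed line at the gene's own value of -0.22. All points lie below 0. Celf1-212 (-0.73) and Celf1-210 (-0.64), both short, lie furthest left, and the long protein-coding isoforms lie at -0.23 to -0.22. Of the other short isoforms, none of them called, Celf1-211 lies at -0.58, Celf1-213 at -0.40 and Celf1-209 at -0.18. Of these 14 isoforms edgeR called 11, and with all 4 CTX groups in one fit it called 0.

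In CTX the chronic comparison gave 0 calls of 54 members by edgeR (0% of all 25644 genes), 7 with an unadjusted p below 0.05 (10.4%) and 0 by DESeq2 (0.608%). The members were lower in 39 and higher in 15, with a median of -0.07 beside -0.01 over all genes. The groups of 14 did not overlap, 13 of them lower, beside 18.2% of all genes in either direction and 9.24% lower. Celf1 measured 213, 185 and 183 CPM in saline and 166, 135 and 160 CPM in ethanol libraries (log2 fold change -0.34, SE 0.10, FDR 0.443), and Celf2 303, 299 and 297 CPM in saline and 272, 250 and 213 CPM in ethanol libraries (-0.29, SE 0.098, FDR 0.443). Both were lower in every ethanol library than in any saline library. Astrocyte marker sums in these libraries ran from 2617 to 3169 CPM in saline and from 1942 to 2414 CPM in ethanol libraries, with 6 of 8 markers lower, and mural and fibroblast sums from 121 to 138 CPM and from 106 to 112 CPM, with 6 of 6 lower. EdgeR called none of these markers, none was at 0 in every library of a group, and their part in the Celf1 and Celf2 values was not tested.

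In vHPC after acute ethanol no member passed edgeR's threshold (0 of 54, beside 0% of all 19916 genes), whereas 6 had an unadjusted p below 0.05 (11.9%) and DESeq2 called 3 (2.90%), which were Elavl2, Elavl4 and Celf3. Elavl4 measured 52.1, 47.6 and 49.5 CPM in saline and 36.3, 31.6 and 30.5 CPM in ethanol libraries. The ethanol libraries were all lower, with a log2 fold change of -0.60 (SE 0.10), a DESeq2 adjusted p of 0.000856 and an edgeR FDR of 0.171. Elavl2 measured 106, 100 and 96.8 CPM in saline and 63.8, 56.3 and 66.9 CPM in ethanol libraries (log2 fold change -0.70, SE 0.094, edgeR FDR 0.171), again without overlap. Without saline replicate 6 edgeR called 3 members, with FDRs of 0.059 for Elavl2 and 0.0858 for Elavl4. The share of all genes called in that fit is not given, so this count does not show whether members differed from other genes. Celf3 measured 65.5, 81.7 and 111 CPM in saline and 146, 106 and 147 CPM in ethanol libraries, and 1 ethanol library lay below the highest saline library (0.63, SE 0.20, FDR 0.298). Groups of 8 members did not overlap, beside 18.0% of all genes.

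The same vHPC libraries differed in markers of dissected tissue. The summed level of 6 dentate granule markers ran from 132 to 292 CPM in saline and from 357 to 548 CPM in ethanol libraries, and all 6 were higher after ethanol with none called. The sum of 6 pan-neuronal markers ran from 4907 to 5326 CPM in saline and from 4120 to 4298 CPM in ethanol libraries, and the thalamic sum was 730, 173 and 114 CPM in saline and 46.1, 183 and 38.9 CPM in ethanol libraries. Mural and fibroblast sums ran from 139 to 158 CPM and from 97.0 to 124 CPM. None of these markers was at 0 in every library of a group. Their part in the Elavl2, Elavl4 and Celf3 values was not tested.

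In vHPC after chronic ethanol the smallest p-values were those of Nova2 and Srsf3. Nova2 measured 131, 119 and 127 CPM in saline and 99.0, 96.5 and 96.3 CPM in ethanol libraries. These groups were apart (log2 fold change -0.37, SE 0.088), with a DESeq2 adjusted p of 0.0597 and an edgeR FDR of 0.273. Elavl4 averaged 34.6 and 37.0 CPM, and the groups overlapped. Srsf3, an SR protein that controls its own mRNA, measured 108, 109 and 96.3 CPM in saline and 116, 129 and 143 CPM in ethanol libraries (0.31, SE 0.11, FDR 0.445). EdgeR called 0 of 54 members (0.0555% of all genes), 5 had an unadjusted p below 0.05 (9.51%) and DESeq2 called 1 (1.08%). Groups of 9 members did not overlap, beside 14.7% of all genes. Choroid plexus markers, genes of the epithelium that makes cerebrospinal fluid, summed to 26.7 to 207 CPM in saline and 891 to 3177 CPM in ethanol libraries, 5 of 8 of them called higher. Endothelial sums ran from 143 to 161 CPM in saline and from 124 to 127 CPM in ethanol libraries, and mural and fibroblast sums from 122 to 137 CPM and from 102 to 115 CPM, with none of these markers called. All 10 myelin and oligodendrocyte markers were higher (median log2 fold change 0.69), 9 at an unadjusted p below 0.05 and 1 called by DESeq2. All 10 striatal projection neuron markers were higher as well (median 1.74), 3 at an unadjusted p below 0.05. All 6 pan-neuronal markers were lower (median -0.28), 0 of them at an unadjusted p below 0.05. Of 8 pallial excitatory markers 5 were lower and 3 higher (median -0.30), and 3 of the 8 had an unadjusted p below 0.05. EdgeR called no gene of these last lists. The part of these cells in the Nova2 and Srsf3 values was not tested.

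In dHPC the named members were Khdrbs2, Rbfox1, a neuronal splicing regulator that binds GCAUG, and Srsf3. After acute ethanol edgeR called 0 of 55 members (0.0420% of all genes), 3 had an unadjusted p below 0.05 (7.88%) and DESeq2 called 1 (1.07%), Khdrbs2. This gene measured 8.49, 8.64 and 6.76 CPM in saline and 6.19, 5.65, 5.28 and 5.89 CPM in ethanol libraries. The groups did not overlap (log2 fold change -0.47, SE 0.115, edgeR FDR 0.316, DESeq2 adjusted p 0.0382). Rbfox1 measured 324, 323 and 317 CPM in saline and 350, 350, 332 and 360 CPM in ethanol libraries (0.12, SE 0.048, FDR 0.60). After chronic ethanol it measured 363, 328 and 315 CPM in saline and 398, 366 and 397 CPM in ethanol libraries, and again did not overlap (0.21, SE 0.073, FDR 0.572). Srsf3 measured 117, 115 and 116 CPM in saline and 126, 122 and 145 CPM in ethanol libraries after chronic ethanol (0.17, SE 0.072, FDR 0.591). EdgeR called 0 of 54 members in dHPC chronic (0% of all genes), with 4 at an unadjusted p below 0.05 (8.23%) and 0 by DESeq2 (0.859%). Groups of 3 members in dHPC acute and 11 in dHPC chronic did not overlap, beside 8.16% and 14.0% of all genes, and 40 of 54 members were higher in dHPC chronic with a median of 0.04.

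Markers of other tissue differed between the same dHPC libraries. In dHPC acute all 10 striatal projection neuron markers were lower after ethanol (median log2 fold change -0.96), 10 of them at an unadjusted p below 0.05 and none called. Their sums ran from 604 to 973 CPM in saline and from 324 to 646 CPM in ethanol libraries and overlapped. All 6 thalamic markers were higher, 4 at an unadjusted p below 0.05, with overlapping sums of 89.9 to 186 CPM and 141 to 324 CPM, and 1 of 10 myelin and oligodendrocyte markers was called lower. In dHPC chronic all 10 striatal markers were lower again (median -2.52), 10 at an unadjusted p below 0.05, with sums of 213 to 2836 CPM in saline and 185 to 327 CPM in ethanol libraries. All 10 myelin and oligodendrocyte markers were lower as well, 10 at an unadjusted p below 0.05 and 8 called by DESeq2, and their sums of 6635 to 7732 CPM and 5311 to 6071 CPM did not overlap. All 6 dentate granule markers were higher, 5 at an unadjusted p below 0.05 and 2 called by DESeq2, with sums of 266 to 432 CPM in saline and 449 to 613 CPM in ethanol libraries, again apart. EdgeR called none of these markers in dHPC chronic, and none was at 0 in every library of a group. Their part in the Khdrbs2, Rbfox1 and Srsf3 values was not tested.

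**Figure D4:**
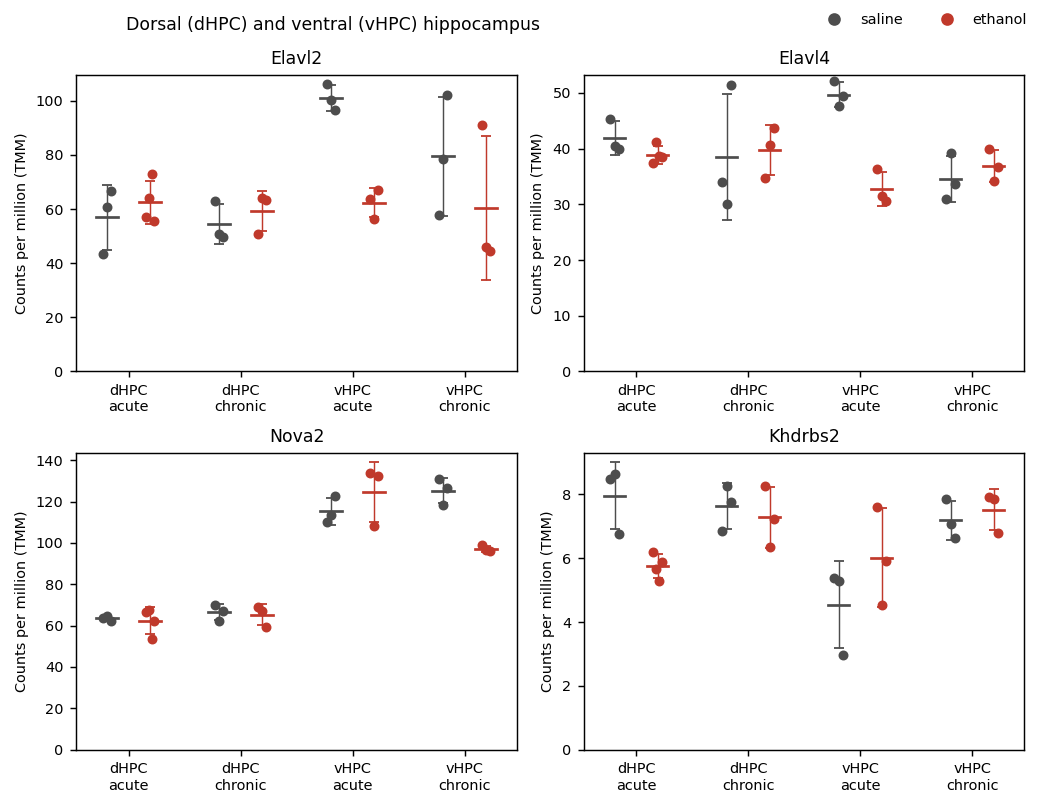
TMM-normalized CPM (y axis) of Elavl2, Elavl4, Nova2 and Khdrbs2 in dHPC and vHPC, acute and chronic (x axis); points are libraries, lines with bars are the mean and SD of saline and ethanol groups. Elavl2 and Elavl4 separate the groups in vHPC acute, Nova2 in vHPC chronic (119 to 131 CPM in saline, 96.3 to 99.0 CPM in ethanol libraries) and Khdrbs2 in dHPC acute.

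By family, the 6 edgeR calls fell in the Celf, Elavl, Khdrbs and Hnrnp families. Of the 12 Srsf genes 11 were tested, with medians from -0.07 in CTX chronic to 0.10 in vHPC chronic, and none was called. Of the 20 Hnrnp genes only Hnrnpa0 in CTX acute was called, and medians ran from -0.09 in CTX chronic to 0.05 in vHPC chronic. The 3 Rbfox genes had medians from -0.18 in vHPC chronic, where all 3 were lower, to 0.20 in DS chronic, where all 3 were higher. In vHPC chronic the groups of all 3 did not overlap, beside 14.7% of all genes, and 0 of the 3 had an unadjusted p below 0.05. The Elavl family had its lowest medians in DS chronic, with -0.38, in vHPC acute and VS chronic, with -0.31 each, and in DS acute, with -0.30. The Ptbp family had medians from -0.25 in VS chronic to 0.09 in vHPC chronic, and Mbnl from -0.18 in CTX chronic to 0.17 in DS acute and DS chronic. EdgeR called none of the Rbfox, Nova, Ptbp or Mbnl genes in any comparison. DESeq2 called Nova2 in CTX acute, vHPC chronic and the vHPC interaction, and Ptbp1 in CTX acute.

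In the comparisons with called members, the largest falls and rises by family were as follows. In CTX acute Srsf9 was at -0.14 and Srsf3 at 0.08, Hnrnpa1 at 0.09, Rbfox3 at -0.12 and Rbfox2 at 0.11, Nova2 at -0.26 and Nova1 at -0.09. Celf6 was at 0.15, Elavl1 at -0.17 and Elavl4 at 0.07, Ptbp1 at -0.27 and Ptbp2 at 0.07, Mbnl3 at -0.81 on few counts and Mbnl2 at 0.03, and Khdrbs2 at -0.22 and Khdrbs3 at 0.02. In DS acute Srsf2 was at -0.14 and Srsf3 at 0.16, Hnrnpa0 at -0.16 and Hnrnpr at 0.20, and Rbfox3 at 0.04 and Rbfox2 at 0.16. Nova2 was at -0.18 and Nova1 at 0.01, Ptbp2 at 0.04 and Ptbp3 at 0.15, and Mbnl2 at 0.16 and Mbnl1 at 0.18. None of these named values passed edgeR's threshold. The remaining members are Srsf1, Srsf4, Srsf6, Srsf7, Srsf10, Srsf11, Hnrnpa2b1, Hnrnpa3, Hnrnpab, Hnrnpc, Hnrnpd, Hnrnpdl, Hnrnpf, Hnrnph1, Hnrnph2, Hnrnph3, Hnrnpk, Hnrnpl, Hnrnpll, Hnrnpm, Hnrnpu, Hnrnpul1 and Hnrnpul2.

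**Figure D5:**
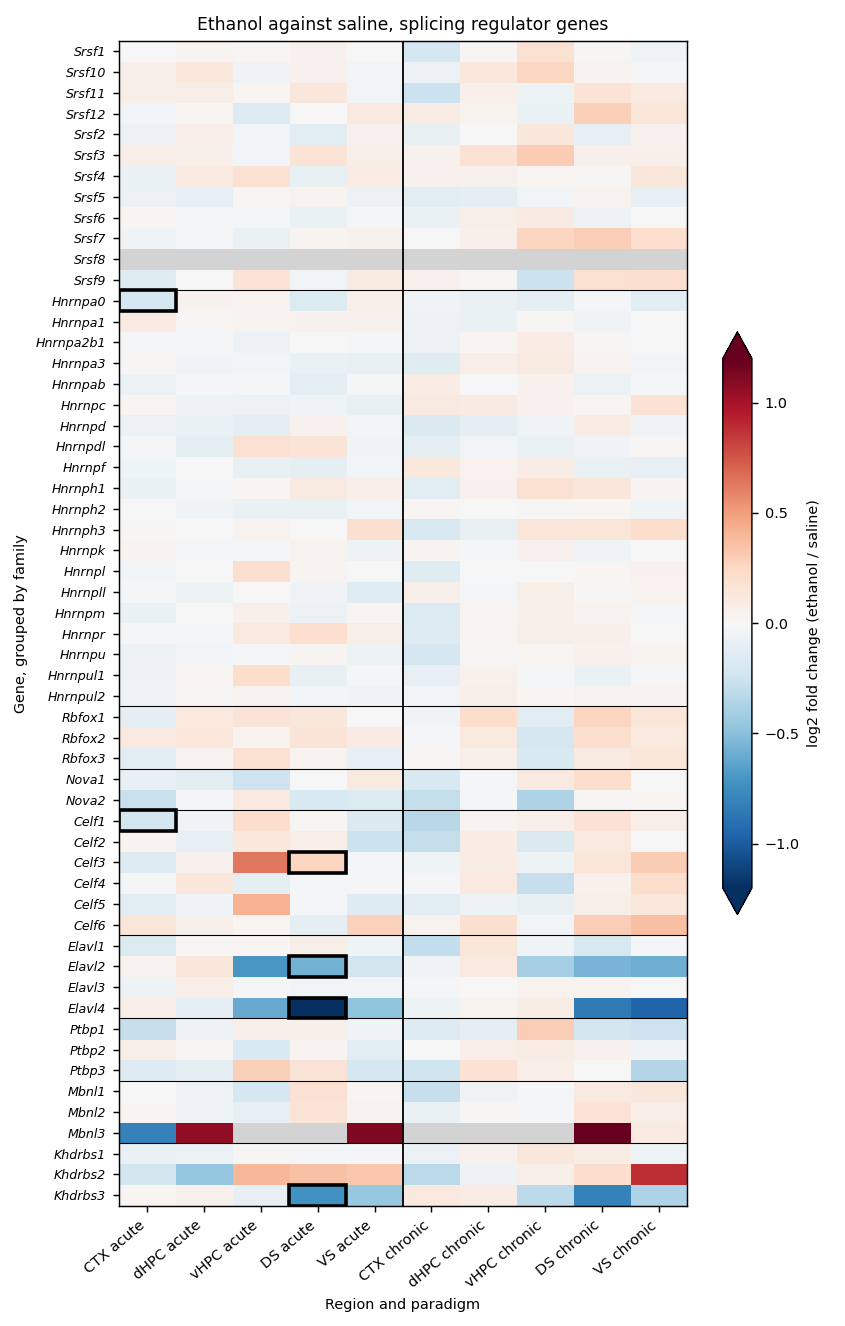
Log2 fold change of ethanol over saline (colour, limited to between -1.2 and 1.2) for each member (rows, grouped by family) in each region and paradigm (columns); boxes mark an edgeR FDR below 0.1 and grey marks genes not tested. The 6 boxes are Celf1 and Hnrnpa0 in CTX acute and Elavl4, Elavl2, Khdrbs3 and Celf3 in DS acute.

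Whether the ethanol effect differed between acute and chronic exposure was tested as an interaction term within each region. EdgeR called 0 members and 0% of all genes in each of the 5 regions. An unadjusted p below 0.05 was found for 1 member in CTX (8.19% of all genes), 2 in dHPC (4.48%), 10 in vHPC (11.5%), 2 in VS (4.62%) and 1 in DS (4.16%). DESeq2 called 0 members in CTX, dHPC, DS and VS (0.0791%, 0.00745%, 0.0190% and 0.0191% of all genes) and 2 in vHPC (2.02%): Elavl4, whose log2 fold change was 0.69 higher after chronic than acute ethanol (SE 0.15, edgeR FDR 0.289, DESeq2 adjusted p 0.0159), and Nova2, for which the difference was -0.48 (SE 0.13, FDR 0.296, DESeq2 adjusted p 0.0519). In CTX the smallest p-values were those of Celf2 (-0.33) and Hnrnph3 (-0.21), in dHPC of Ptbp3 (0.27) and Khdrbs2 (0.40), in DS of Elavl1 (-0.26) and Srsf12 (0.28), and in VS of Khdrbs2 (0.56) and Celf3 (0.32). Without vHPC acute saline replicate 6, edgeR called 4 members in the vHPC interaction, with FDRs of 0.0923 for Elavl4 and 0.098 for Nova2. The share of all genes called without that library is not given, so this count does not show whether members differed from other genes.

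The libraries behind these interactions were as follows. In CTX Celf2 measured 287, 294 and 294 CPM in acute saline and 292, 303 and 300 CPM in acute ethanol libraries, against 303, 299 and 297 CPM in chronic saline and 272, 250 and 213 CPM in chronic ethanol libraries, so that the chronic groups alone were apart. Hnrnph3 measured 30.7, 27.9 and 31.8 CPM in acute saline, 31.1, 29.7 and 30.6 CPM in acute ethanol, 31.6, 31.8 and 31.4 CPM in chronic saline and 28.8, 26.8 and 28.1 CPM in chronic ethanol libraries. Its chronic groups did not overlap. In dHPC Ptbp3, a PTB paralogue, measured 27.8, 26.7 and 25.9 CPM in acute saline, 26.9, 25.8, 23.3 and 23.8 CPM in acute ethanol, 22.7, 23.2 and 23.8 CPM in chronic saline and 25.5, 24.8 and 28.3 CPM in chronic ethanol libraries. Again the chronic groups alone were apart. In DS Elavl1 measured 43.5, 39.3 and 42.7 CPM in acute saline, 41.9, 45.9 and 44.2 CPM in acute ethanol, 46.9 and 46.1 CPM in chronic saline and 40.5, 39.3, 43.8 and 39.2 CPM in chronic ethanol libraries. Srsf12 measured 18.0, 17.2 and 18.5 CPM in acute saline, 18.1, 18.2 and 17.6 CPM in acute ethanol, 18.3 and 17.1 CPM in chronic saline and 21.7, 22.7, 22.1 and 19.7 CPM in chronic ethanol libraries. For both genes the chronic groups did not overlap and the acute groups did. In dHPC chronic Khdrbs2 measured 6.85, 8.27 and 7.78 CPM in saline and 8.27, 6.36 and 7.24 CPM in ethanol libraries, and in VS acute Celf3 measured 147, 157 and 164 CPM in saline and 176, 153 and 131 CPM in ethanol libraries, both with overlap. In vHPC Elavl4 measured 31.0, 39.1 and 33.7 CPM in chronic saline and 39.9, 34.2 and 36.7 CPM in chronic ethanol libraries, and Nova2 110, 113 and 123 CPM in acute saline and 134, 108 and 132 CPM in acute ethanol libraries. These pairs of groups overlapped. Interaction terms of some marker lists had one sign throughout, though edgeR called none of their genes. In vHPC all 8 choroid plexus, 6 thalamic and 10 myelin markers were higher (medians 4.26, 1.94 and 1.02). All 6 dentate granule markers were lower there (-0.86). All 10 myelin markers were lower in VS (-0.69), all 10 striatal markers in dHPC (-1.70) and all 8 choroid plexus markers in DS (-3.08). The part of these cells in the interaction values was not tested.

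Across members, the log2 fold changes of acute and chronic ethanol, which have separate control libraries, correlated with Pearson r of 0.36 in CTX, 0.45 in dHPC, 0.02 in vHPC, 0.82 in DS (54 members each) and 0.53 in VS (55). Members are not independent replicates. Without Elavl4, Elavl2 and Khdrbs3 the r of DS was 0.30 over 51 members.

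At the isoform level, edgeR called 12 of 537 member isoforms in CTX acute, all lower (11 of Celf1 and 1 of Hnrnpd), beside 1.24% of all isoforms (0.745% lower), and 32 of 537 in DS acute, 31 lower and 1 higher, beside 3.59% (2.31% lower). DESeq2 called 26 (2.24%) and 39 (3.64%), and 90 (11.2%) and 83 (13.5%) had an unadjusted p below 0.05. Those in DS were 12 of 12 isoforms of Elavl4, 13 of 16 of Elavl2, 6 of 6 of Khdrbs3 and 1 of 15 of Celf3. The 12 Elavl4 isoforms ran from -1.55 to -1.05, Elavl4-202 and Elavl4-204 at -1.25 with edgeR FDRs of 4.03e-06 and 4.06e-06. Khdrbs3-204, an NMD isoform, fell by 0.80 (FDR 2.5e-05) and Elavl2-208, a protein-coding one, by 0.59 (FDR 0.00101). Celf3-210, a retained-intron isoform, rose by 0.26 (FDR 0.0792). EdgeR called NMD isoforms of members in DS acute, 2 of 49 tested, both of Khdrbs3, and in no other comparison. DESeq2 called 2 in DS acute, 2 in CTX acute and 2 in DS chronic. In the other 8 pairwise and the 5 interaction tests edgeR called no member isoform, beside 0.00150% of all isoforms in dHPC acute, 0.233% in VS acute, 0.0402% in vHPC chronic, 0.00827% in VS chronic and 0% in the rest.

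Member isoforms with an unadjusted p below 0.05 numbered 31 in dHPC acute (7.69% of all isoforms), 87 in vHPC acute (11.0%) and 9 in VS acute (6.98%). After chronic ethanol they numbered 48 in CTX (9.80%), 20 in dHPC (7.23%), 41 in vHPC (8.81%), 63 in VS (9.01%) and 40 in DS (7.32%). For the interaction they numbered 25 in CTX (7.61%), 19 in dHPC (4.39%), 101 in vHPC (10.6%), 24 in VS (4.81%) and 9 in DS (4.44%). DESeq2 called 1 in dHPC acute (0.704%), 30 in vHPC acute (1.65%), 0 in VS acute (0.708%), 1 in CTX chronic (0.301%), 0 in dHPC chronic (0.506%), 0 in vHPC chronic (0.723%), 5 in DS chronic (0.467%) and 6 in VS chronic (1.02%). For the interaction it called 23 in vHPC (1.39%) and 0 in CTX (0.264%), dHPC (0%), DS (0.0107%) and VS (0.105%).

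The member isoforms with the smallest p-values in these tests were Khdrbs2-201 (-0.50) and Hnrnpu-205 (-0.24) in dHPC acute, Elavl2-208 (-0.74) and Elavl2-201 (-0.75) in vHPC acute, and Khdrbs3-201 (-0.48) and Khdrbs3-206 (-0.50) in VS acute. After chronic ethanol they were Hnrnpr-210 (-1.27) and Mbnl1-209 (-0.46) in CTX, Hnrnpd-207 (-0.20) and Rbfox1-213 (0.21) in dHPC, and Srsf3-207 (0.47) and Nova2-201 (-0.36) in vHPC. In the striatum they were Khdrbs3-202 (-0.83) and Khdrbs3-206 (-0.83) in DS chronic, and Khdrbs2-201 (0.86) and Khdrbs3-203 (-0.67) in VS chronic. For the interactions they were Celf4-204 (-0.71) and Hnrnpr-210 (-1.05) in CTX, Hnrnpc-202 (0.27) and Hnrnpc-207 (0.25) in dHPC, Elavl4-207 (0.77) and Elavl4-202 (0.78) in vHPC, Hnrnpdl-204 (-0.39) and Hnrnpdl-206 (-0.38) in DS, and Celf3-212 (0.45) and Celf3-209 (0.46) in VS, none of them called.

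Genes of the wider splicing machinery were mostly not called, like most genes tested. Of 33 core spliceosome genes, 21 SR protein kinases and SR-related genes, 30 other regulators and 16 NMD genes, only Snrpn and Smg5 passed edgeR's threshold in any pairwise comparison, both in DS acute. There 33, 21, 27 and 16 genes of these lists were tested, and edgeR called 5.15% of all 20495 genes. In the other pairwise comparisons it called 0% to 1.99% of all genes. Snrpn, an imprinted snRNP protein gene, fell from 606 ± 17.2 to 529 ± 10.5 CPM (log2 fold change -0.20, SE 0.055, FDR 0.0808). Smg5, an NMD factor, rose from 115 ± 10.5 to 140 ± 6.67 CPM (0.30, SE 0.076, FDR 0.0533). The DS acute libraries differed in the cell-type markers given above, and their part in the Snrpn and Smg5 values was not tested. In CTX chronic 20 of 21 SR protein kinases and SR-related genes were lower and 1 was higher, with a median of -0.21 beside -0.01 over all genes, 8 of them with an unadjusted p below 0.05 (10.4% of all genes). EdgeR called none of them and DESeq2 called 1 (0.608%), Srrm2, a gene named here after its value was seen.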

How the data were processed

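Groups were taken from the labels alone. The authors' deposited tables hold raw counts per gene and per isoform, and the submitters' processing notes name bcl2fastq, cutadapt 5.0, STAR 2.7.10a, featureCounts 2.0.6 and GRCm39. Reads overlapping several features were counted for each. A gene or isoform had to reach 5 counts in 2 or more libraries of one group and was then tested with edgeR 4.0.16 (quasi-likelihood test, TMM normalization, limma 3.58.1, R 4.3.3), ethanol against saline in each region and paradigm and the interaction, over all genes or all isoforms. An adjusted p (Benjamini-Hochberg FDR) below 0.1 was a call, and the script was tested on simulated data. Alternatives were DESeq2 1.42.0, its size factors, no filter, a minimum of 10 counts in each library, one fit over the 4 groups from a region, a replicate block and omission of each library. Members and lists were chosen with earlier results of these data known. Genes named with values are those called and the 2 with the smallest p in each test, the highest per kilobase in each family, and the extremes of each family where a member was called. Isoforms follow the same rule. Library totals of 8149628 to 71164766 counts limit precision for low genes such as Mbnl3. DS chronic saline replicate 2 was left out of tests of DS chronic and the DS interaction. One marker gene is not reported here and is not part of the marker sums.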

Additional observations from a re-analysis of the deposited data

Results flagged for a closer look

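For 6 of the genes named above, the ethanol and saline groups did not overlap in one direction in one region and in the other direction in another region. Over all members tested in 2 or more regions this held for 3 of 55 after acute ethanol, beside 5.77% of all genes, and for 10 of 55 after chronic ethanol, beside 6.74%. The difference between regions was not tested, and the regions compared come from both library kits in most cases. After acute ethanol Celf1 had a log2 fold change of 0.21 in vHPC and -0.22 in CTX, and Khdrbs2 had 0.33 in VS, -0.22 in CTX and -0.47 in dHPC. After chronic ethanol Celf2 had 0.087 in dHPC and 0.12 in DS, against -0.29 in CTX and -0.18 in vHPC. Elavl1 had 0.14 in dHPC, against -0.30 in CTX and -0.19 in DS. Khdrbs2 had 0.89 in VS and -0.33 in CTX, Ptbp3 0.17 in dHPC and -0.35 in VS, and Rbfox1 0.21 in dHPC and -0.13 in vHPC. Of these values, Celf1 in CTX acute alone passed edgeR's threshold.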

How the results depend on the processing

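The calls of Elavl4, Khdrbs3 and Elavl2 in DS acute held under each alternative run, and the median log2 fold change of the members moved by less than the spread between replicates under DESeq2's size factors in 10 of 10 pairwise comparisons. With DESeq2 the number of member genes called was 4 in CTX acute, 1 in dHPC acute, 3 in vHPC acute, 1 in vHPC chronic, 1 in DS chronic, 3 in VS chronic and 2 in the vHPC interaction. Without a filter it was 4 in CTX acute, 2 in vHPC acute, 2 in VS acute, 3 in DS chronic, 3 in VS chronic and 2 in the vHPC interaction. With all 4 groups in one fit it was 0 in CTX acute and 1 in DS chronic. For isoforms DESeq2 called 26 in CTX acute, 1 in dHPC acute, 30 in vHPC acute, 1 in CTX chronic, 5 in DS chronic, 6 in VS chronic and 23 in the vHPC interaction. Without a filter the isoform counts were 29 in CTX acute, 1 in dHPC acute, 20 in vHPC acute, 11 in VS acute, 1 in CTX chronic, 9 in vHPC chronic, 23 in DS chronic, 21 in VS chronic and 27 in the vHPC interaction. With all 4 groups in one fit they were 0 in CTX acute, 8 in DS chronic and 1 in VS chronic. Among these alternatives, the share of all genes or isoforms called is given above for DESeq2 alone. For the others, here, in the omissions and joint fits above and in the omissions and blocks below, it is not given. Those counts therefore do not show whether members differed from other genes. The cause was not tested.

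Omitting 1 library gave 0 to 3 genes in CTX acute (0 without ethanol replicate 4 or 5 or saline replicate 4 or 6, 1 without saline replicate 2), 0 to 3 in vHPC acute (3 without saline replicate 6), 3 to 4 in DS acute, 0 to 1 in VS acute (1 without ethanol replicate 2), 0 to 1 in vHPC chronic (1 without ethanol replicate 4), 0 to 3 in VS chronic (3 without saline replicate 5) and 0 to 4 in the vHPC interaction (4 without acute saline replicate 6). It gave 0 to 21 isoforms in CTX acute (21 without ethanol replicate 2, 0 without ethanol replicate 4 or 5 or saline replicate 4, 2 without saline replicate 2 or 6), 0 to 32 in vHPC acute (32 without saline replicate 6, 7 without ethanol replicate 4), 29 to 37 in DS acute, 0 to 11 in VS acute (11 without ethanol replicate 2), 0 to 18 in vHPC chronic (18 without ethanol replicate 4), 0 to 16 in VS chronic (16 without saline replicate 5) and 0 to 19 in the vHPC interaction (19 without acute saline replicate 6, 3 without acute ethanol replicate 4). Omission gave 0 in the other tests. Including DS chronic saline replicate 2, which lacks counts for Elavl1, turned the Elavl1 DS interaction from -0.26 to 0.32.

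With the replicate number as a block, 0 genes and 34 isoforms were called in CTX acute and 2 isoforms in CTX chronic, and 0 genes in CTX chronic, dHPC acute and the 5 interactions. Deviations of same-numbered libraries from their group means had r of -0.02 to 0.04 in dHPC acute, 0.08 and 0.11 in CTX acute, and 0.03 and -0.21 in CTX chronic. They cover 22965, 22884 and 22592 genes. Pairs with different numbers ran from -0.07 to 0.09, from -0.11 to 0.03 and from -0.12 to 0.18, in that order. In CTX acute both same-numbered pairs lay above all others. With so few pairs, these values cannot decide whether same-numbered libraries have more in common than their number. No paired analysis was possible because the groups share fewer than 2 numbers in the vHPC, DS and VS pairwise comparisons and in dHPC chronic.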
